A study of Mus musculus with 8 samples.

Results

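The genes of the proteasome were examined in single endocardium cells of the embryonic mouse heart with and without *Sox17*. Members were the genes with an array probe whose name began with Psma, Psmb, Psmc, Psmd, Psme, Psmf or Psmg and a digit, which took 49 of the 35715 gene names on the array, with 62 of 55681 probes. Of these, 47 encode a part of the proteasome or a protein that binds or assembles it. The other 2 were *Psmc3ip*, named for binding PSMC3 and not itself a subunit, and *Psme2b*, a copy of the activator gene *Psme2*. They are given by their values only. The 47 genes held 19 of the core (8 of its alpha rings and 11 of its beta rings), 17 of the cap (9 of its base and 8 of its lid), 4 activators and inhibitor, and 7 assembly chaperones. No probe of the array carried the name *Psme2* itself, so that no values are given for it.

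Each of 8 one-colour arrays carried the amplified cDNA of 1 endocardium cell from an embryo at 8.5 days post coitum with 9 somites. The 4 WT cells were Mesp1+/+ Sox17flox/flox and carried no Cre, and the 4 KO cells were Mesp1Cre/+ Sox17flox/flox, so that both groups carried the floxed alleles and differed at *Mesp1*. Because *Mesp1* is active in early mesoderm, its Cre acts in the mesoderm as a whole and not in the endocardium alone, and the KO cells also lacked 1 intact copy of *Mesp1*. The labels give the heart tube as the tissue and the paper the ventricle. Cells had been picked by hand after trypsin treatment, and their cDNA was assigned to a cell type by PCR of marker genes. Which embryo a cell came from is not given, and therefore each genotype was taken as a single sample and nothing was tested. Differences are therefore given as KO minus WT means of log2 values, with their pooled SD over the cells of either genotype, which measures the spread among these cells only.

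The proteasome degrades proteins that carry chains of ubiquitin. Its core particle is a barrel of stacked rings, with outer alpha rings that gate the entrance and inner beta rings that hold the proteolytic sites. The cap, or regulatory particle, binds ubiquitin chains and removes them with its lid, and unfolds the substrate with the ATPase ring of its base. Other activators can take the place of the cap, and cells exposed to interferon exchange the catalytic beta subunits for inducible ones, as in the immunoproteasome. Because every particle needs all of its constitutive subunits, their genes are expressed in most cell types.

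The arrays varied in how much they detected. Between 11370 and 18175 of 55295 usable probes were well above background, the call of the scanner software, and WT cell 1 had the fewest. Endocardial or endothelial marker genes were well above background for 6 to 10 of 10 in each cell. Cardiomyocyte markers reached 3 to 7 of 9, with a summed scaled intensity of 318 to 34056 in WT and 1001 to 48719 in KO cells, and with *Myh6* and *Tbx5* under the floor in every cell. Each cell held 2 of 3 detected markers of smooth muscle, with sums of 66.2 to 14376 in WT and 57.3 to 7724 in KO cells and *Cnn1* under the floor throughout. All 5 blood markers and all 5 endoderm markers were under the floor in every cell. The part of muscle transcripts in the values below was not tested. Both probes of *Sox17* were well above background on no array, with scaled intensities of 1.09 to 4.38 in WT and 1.53 to 6.18 in KO cells, so that they do not check the genotype. All arrays were on 1 slide with the genotypes in separate columns, and position and genotype cannot be told apart.

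Values are log2 intensities after each array was scaled, with a floor at 5.64 for dim probes. A value at the floor has no order among others at the floor, and the level of 1 gene is not set against that of another, because probes differ in how brightly they report. Of the 47 genes, 23 were well above background on all 8 arrays, 41 on at least 4, and 43 were above the floor in at least 1 cell.

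The stretches upstream of 5 transcription start sites are printed here because their genes bear on the comparisons below: *Psmb5*, a catalytic subunit bright in every cell, beside its inducible counterpart *Psmb8*, which was under the floor in every cell, and *Psmc1* and *Psmc2*, ATPases of the same ring with differences of opposite sign. Each is the 250 bases before a start in RefSeq on GRCm38.p6, read 5′ to 3′ on the strand of the gene. Capitals mark matches on either strand to TGACNNNGC, the core of the antioxidant response element through which NFE2L1 and NFE2L2 raise proteasome genes, to CCAAT, or to CCGGAAG, a core bound by ETS factors.
*Psmb5*, chr14:54617996-54618245, minus strand: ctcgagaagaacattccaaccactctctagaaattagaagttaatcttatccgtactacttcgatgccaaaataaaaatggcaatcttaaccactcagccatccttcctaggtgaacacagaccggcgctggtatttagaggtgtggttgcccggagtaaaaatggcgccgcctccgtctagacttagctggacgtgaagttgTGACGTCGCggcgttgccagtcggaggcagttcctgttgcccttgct
*Psmb8*, chr17:34197945-34198194, plus strand: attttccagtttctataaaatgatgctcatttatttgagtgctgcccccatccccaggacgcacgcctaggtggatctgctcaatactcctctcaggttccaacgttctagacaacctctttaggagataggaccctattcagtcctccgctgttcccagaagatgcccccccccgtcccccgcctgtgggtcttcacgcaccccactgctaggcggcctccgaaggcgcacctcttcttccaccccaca
*Psmc1*, chr12:100109952-100110201, plus strand: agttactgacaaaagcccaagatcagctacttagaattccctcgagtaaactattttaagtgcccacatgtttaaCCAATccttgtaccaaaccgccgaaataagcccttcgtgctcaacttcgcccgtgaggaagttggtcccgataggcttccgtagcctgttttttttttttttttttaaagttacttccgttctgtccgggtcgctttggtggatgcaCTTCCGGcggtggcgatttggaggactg
*Psmc2*, first start, chr5:21785025-21785274, plus strand: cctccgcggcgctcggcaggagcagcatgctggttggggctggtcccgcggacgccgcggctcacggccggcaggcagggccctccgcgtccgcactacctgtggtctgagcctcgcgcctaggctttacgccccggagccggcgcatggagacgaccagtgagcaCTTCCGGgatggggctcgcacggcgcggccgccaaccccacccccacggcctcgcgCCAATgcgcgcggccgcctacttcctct
*Psmc2*, second start, chr5:21786497-21786746, plus strand: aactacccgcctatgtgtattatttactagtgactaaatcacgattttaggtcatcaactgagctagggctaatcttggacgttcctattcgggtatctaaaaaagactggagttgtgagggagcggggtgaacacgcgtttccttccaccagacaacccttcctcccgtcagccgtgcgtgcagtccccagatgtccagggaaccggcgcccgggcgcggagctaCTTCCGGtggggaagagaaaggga
The *Psmb5* stretch held TGACGTCGC, 47 bases before the start, and the *Psmb8* stretch none of the 3. Both the *Psmc1* stretch and that of the first *Psmc2* start held a CCAAT and a CCGGAAG, the latter read on the opposite strand as CTTCCGG, and the second *Psmc2* start held CCGGAAG alone. None of these matches overlapped another.

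Over 40 proteasome genes with a promoter in the table, *Psme2* included, TGACNNNGC was found for 5 genes, which is 12.5%, beside 10.2% of all 32851 promoters of the same length. The 5 were *Psmb5*, *Psmb6*, *Psmc6*, *Psmd9* and *Psmd12*. CCAAT was found for 14 genes (35%, beside 33.8% of all promoters) and GGGCGG, the GC box, for 22 (55%, beside 32.7%). CCGGAAG was found for 12 genes (30%, beside 6.91%). It occurred in 8 of 14 cap genes and 1 of 15 core genes, the latter being *Psma6*. GCGCATGC, a core of nuclear respiratory factor 1 sites, was found for 2 genes (5%, beside 2.26%). The consensus sequences of kappa B and of the interferon-stimulated response element, each of 10 bases, were found for none, beside 0.0852% and 0.167% of all promoters. A gene with several starts counted once if any start had a match, and the median GC content was 57.6% in the proteasome promoters and 52.4% in all. Such a match is a string of letters and was not tested as a site.

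In the comparison of KO with WT cells, 29 of the 47 genes had a higher mean in KO cells, 14 a lower mean, and 4 were under the floor in all cells. Of the 41 genes well above background on at least 4 arrays, 65.9% were higher, beside 48.9% of all such genes. Among genes with a mean log2 intensity of at least 8 it was 70.6% of 34 proteasome genes, beside 62.9% of 4972 genes. No proteasome gene separated the genotypes, and the ranges of WT and KO cells overlapped for each of the 43 genes above the floor in at least 1 cell. Among all genes past the filter of well above background on at least 4 arrays, 1.93% had every KO cell above every WT cell and 0.43% the reverse. Among all genes with a mean of at least 8 these were 4.02% and 0.72%. Leaving out 1 KO cell changed the overlap for a few proteasome genes. Without KO cell 1, the remaining KO cells lay above all WT cells for *Psma1*, *Psmb2* and *Psmd1*, beside 3.34% of all genes. Without KO cell 2 this held for *Psmb6*, *Psmb7*, *Psmc3* and *Psme1*, beside 2.83%, and *Psmc1* was the reverse, beside 0.792%. It held for *Psmb5* without KO cell 3, for *Psma4* without KO cell 4 and for *Psmc3* without WT cell 4, beside 4.23%, 2.91% and 2.40%. Of the 47 genes, 9 were at least 5-fold higher in the KO mean, where the background over all 11874 genes was 4.65%. These were *Psma1*, *Psma2*, *Psma4*, *Psmb1*, *Psmc2*, *Psmc3*, *Psmd1*, *Psmd3* and *Psme1*. A single gene of the 47, *Psmb4*, was at least 5-fold lower, where the background was 4.34%. The proteasome probes are brighter than most, so that the shares were also taken over genes with a mean log2 intensity of at least 8, a limit chosen after the data were seen. There the counts were 9 higher and 1 lower of 34 proteasome genes, beside 8.35% and 6.60% of 4972 genes.

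Without WT cell 1 the counts became 7 higher and 2 lower of 47, beside 3.76% and 6.90% of all genes past the filter. Of the 9 genes that were higher, 3 (*Psma1*, *Psmb1* and *Psmd3*) then fell short of 5-fold, and *Psmd8* passed it. *Psmb4* no longer was 5-fold lower, and *Psmc5* (-2.40) and *Psmf1* (-2.89) were. Among the 34 brighter genes it left 7 higher and 1 lower, beside 6.17% and 9.94%. No gene of the 47 separated the genotypes without that cell either, beside 4.51% of all genes with every KO cell above every remaining WT cell and 1.72% the reverse. With all cells, only 8 of the 47 differences were larger than their own SD between cells, which is 17.02%. All 8 were among the 41 proteasome genes past the filter. They are 19.5% of those, where 17.8% of all genes past the filter were. With a mean of at least 8 it was 20.6% of 34 proteasome genes, beside 25.6% of 4972 genes. Among genes well above background on all 8 arrays it was 17.4% of 23, beside 21.0% of 6236. The SD of the 41 genes had a median of 2.63, against 0.927 for all genes past the filter. With a mean of at least 8 the medians were 2.73 and 1.94.

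**Figure D1:**
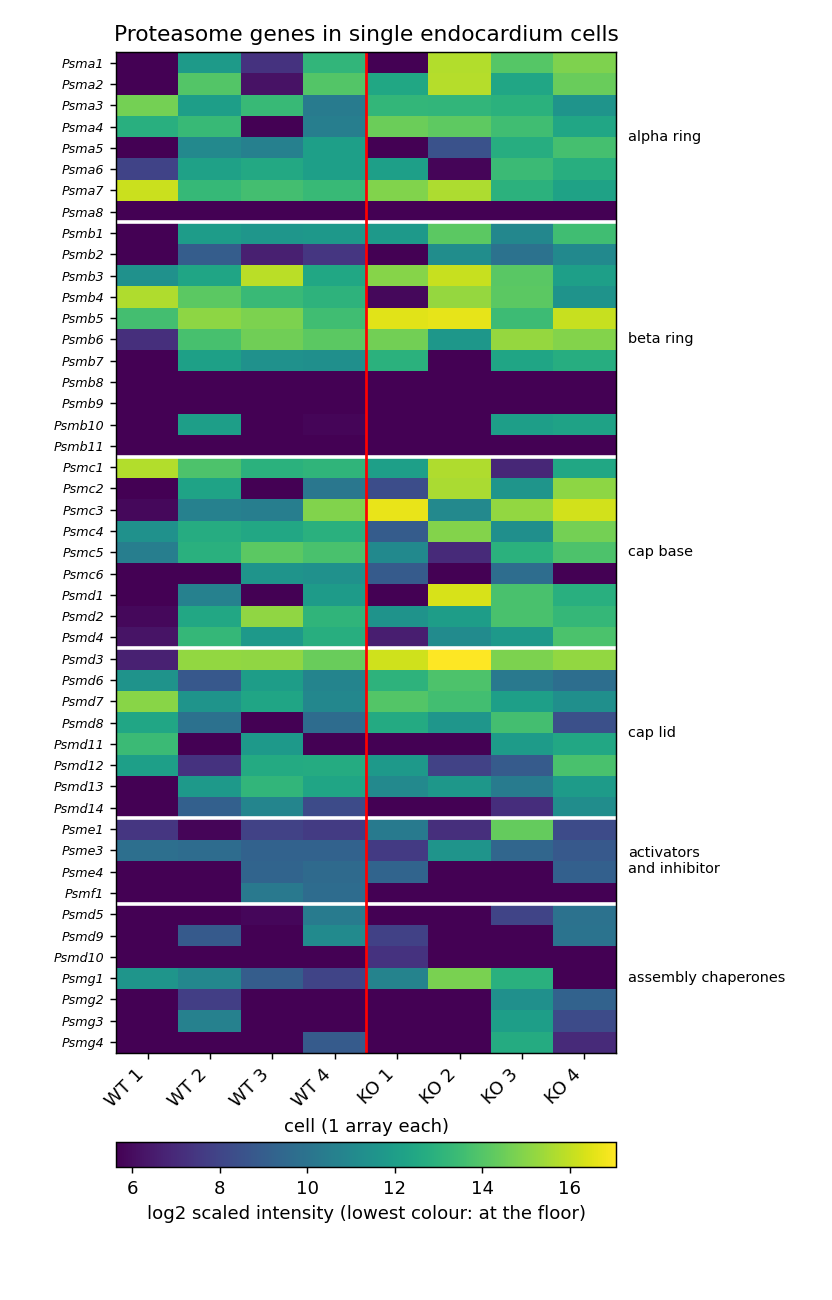
Log2 scaled intensity of 47 proteasome genes (rows, by role) in 4 WT and 4 KO cells (columns, separated by the red line). The darkest colour is the floor at 5.64, colours are to be read along a row and not between rows, and no row splits at the red line.

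The alpha ring had 3 of its 8 genes at least 5-fold higher in the KO mean. Beside this stood 4.65% of all genes past the filter and 8.35% of genes with a mean of at least 8. Its median difference was 0.20, beside 0 for all genes past the filter and 0.30 for genes with a mean of at least 8. Without WT cell 1, 2 of the 8 were past 5-fold, beside 3.76% and 6.17%. The median was then 0.64, beside 0.01 and 0.35. *Psma2*, an alpha subunit (probe on mm9 chromosome 13, 14717729 to 14717788), was at 5.64, 14.004, 6.22 and 13.98 in the WT cells (1 to 4 in order, as for all genes below) and at 12.42, 15.77, 12.40 and 14.45 in the KO cells. WT cells 1 and 3 were low while the other 2 lay among the KO cells. The difference was 3.80 (SD 3.49), and 2.36 without WT cell 1 or 2.55 without WT cell 3.

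*Psma1* was at 5.64, 11.84, 7.30 and 13.14 in the WT and at 5.64, 15.75, 14.06 and 14.84 in the KO cells. It was at the floor in 1 cell of each genotype, KO cells 2 to 4 lay above all WT cells, and the difference was 3.09 (SD 4.16), or 1.81 without WT cell 1 and 2.04 without KO cell 2. *Psma4* was at 12.84, 13.31, 5.64 and 10.53 in the WT and at 14.48, 14.23, 13.56 and 12.40 in the KO cells. Its difference of 3.09 (SD 2.57) rested on the floor value of WT cell 3, and was 1.44 without that cell. Both probes of *Psma4* are placed by the array annotation on another chromosome than the gene, as is the probe of *Psma5*.

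*Psma7* and *Psma3* were among the steadiest genes of the proteasome. *Psma7* was at 16.13, 13.28, 13.64 and 13.33 in the WT and at 14.91, 15.63, 12.95 and 12.21 in the KO cells, a difference of -0.17 (SD 1.49). *Psma3* was at 14.65, 12.04, 13.33 and 10.37 and at 13.20, 13.14, 12.91 and 11.54, a difference of 0.10 (SD 1.41). For both, WT cell 1 was the highest of all 8. *Psma6* behaved otherwise, at 7.94, 12.18, 12.52 and 12.07 in the WT and at 12.06, 5.78, 13.44 and 12.79 in the KO cells, with 1 low cell in each genotype. Its difference was -0.16 (SD 2.93). *Psma8*, the alpha subunit of the testis, was well above background in no cell.

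The beta rings carry the proteolytic sites on PSMB5 (chymotrypsin-like), PSMB6 (caspase-like) and PSMB7 (trypsin-like), which PSMB8, PSMB9 and PSMB10 respectively replace in the immunoproteasome. *Psmb5* (mm9 chromosome 14, 55232957 to 55233016), whose promoter is printed above, was at 13.64, 15.09, 14.78 and 13.54 in the WT and at 16.56, 16.61, 13.48 and 16.10 in the KO cells. KO cells 1, 2 and 4 lay above all WT cells and KO cell 3 below them all. The difference was 1.42 (SD 1.19), and 2.16 without KO cell 3.

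*Psmb6* (chromosome 11, 70341093 to 70341152) was at 7.20, 13.73, 14.59 and 14.17 in the WT and at 14.63, 11.66, 15.24 and 14.94 in the KO cells. WT cell 1 was far below the others, and the difference of 1.70 (SD 2.74) became -0.04 without it. *Psmb7* was at 5.64, 12.12, 11.43 and 11.34 in the WT and at 12.91, 5.64, 12.36 and 12.75 in the KO cells, so that it was at the floor in WT cell 1 and KO cell 2 and above 11 in the rest. Its difference of 0.78 (SD 3.28) was -0.71 without WT cell 1.

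Of the inducible counterparts, *Psmb8* and *Psmb9* were under the floor in every cell, with scaled intensities of 1.18 to 26.3 and 3.35 to 19.2. They were well above background on 1 array (a KO cell) and 3 arrays (1 WT and 2 KO cells). *Psmb10* (chromosome 8, 108459677 to 108459736) was at 5.64, 12.02, 5.64 and 5.79 in the WT and at 5.64, 5.64, 12.04 and 12.20 in the KO cells. It was thus near 12 in 1 WT and 2 KO cells and at or near the floor in the other 5, with a difference of 1.61 (SD 3.46), which was 0.50 when KO cell 4 was left out and 3.19 when WT cell 2 was. *Psmb7*, the constitutive counterpart, was above 12 in those 3 cells and also in KO cell 1, where *Psmb10* was at the floor. *Psmb11*, the beta subunit of thymic epithelium, was well above background in no cell.

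The remaining beta genes are structural, and *Psmb4* was the one gene at least 5-fold lower in the KO mean. It was at 15.70, 14.18, 13.36 and 13.02 in the WT and at 5.87, 15.24, 14.19 and 11.52 in the KO cells. KO cell 1 alone was near the floor, and the difference of -2.36 (SD 3.08) was -0.41 without it. *Psmb1* was at 5.64, 11.93, 11.65 and 11.70 and at 11.80, 14.20, 10.92 and 13.53, a difference of 2.38 (SD 2.41) that was 0.85 without WT cell 1. The median difference of the 11 beta genes was 1.31, and 0 without WT cell 1.

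Of all proteasome genes, *Psmc3* and *Psmc2* of the cap base had the widest differences. *Psmc3*, one of the ATPases (chromosome 2, 90899526 to 90899585), was at 5.91, 10.67, 10.52 and 14.88 in the WT and at 16.69, 11.005, 15.20 and 16.28 in the KO cells. KO cells 1, 3 and 4 lay above all WT cells, and KO cell 2 lay among WT cells 2 to 4. The difference was 4.30 (SD 3.18), a 19.7-fold higher mean, and 2.77 without WT cell 1.

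*Psmc2*, another ATPase of the ring (chromosome 5, 21309536 to 21309595), was at 5.64, 12.26, 5.64 and 10.17 in the WT and at 8.33, 15.58, 11.57 and 15.09 in the KO cells. Its difference was 4.22 (SD 3.36), and 3.29 without WT cell 1. *Psmd1*, the large scaffold of the base (chromosome 1, 88035777 to 88035836), was at 5.64, 10.64, 5.64 and 11.91 in the WT and at 5.64, 16.35, 13.76 and 12.83 in the KO cells. Cells at the floor occurred in both genotypes, and the difference of 3.69 (SD 3.99) was 2.29 without KO cell 2.

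Of the other ATPases of the ring, 3 had a lower mean in KO cells, and *Psmc4* differed by 0.09 (SD 2.08). *Psmc1* was at 15.76, 13.87, 12.92 and 13.11 in the WT and at 12.10, 15.71, 6.91 and 12.44 in the KO cells. Its difference of -2.12 (SD 2.73) rested on KO cell 3 and was -0.50 without it. *Psmc5* was at 10.50, 12.88, 14.18 and 13.78 and at 11.06, 7.02, 12.94 and 13.85, a difference of -1.62 (SD 2.44), with KO cell 2 the lowest and -0.22 without it. *Psmc6* was above the floor in 2 cells of each genotype, with a difference of -1.08 (SD 2.83). *Psmd4*, a ubiquitin receptor of the base, was low in 1 cell of each genotype, at 6.24 in WT cell 1 and 6.60 in KO cell 1, and between 11.13 and 13.81 in the other 6. Over the 9 base genes the median difference was 0.09, and -0.96 without WT cell 1.

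**Figure D2:**
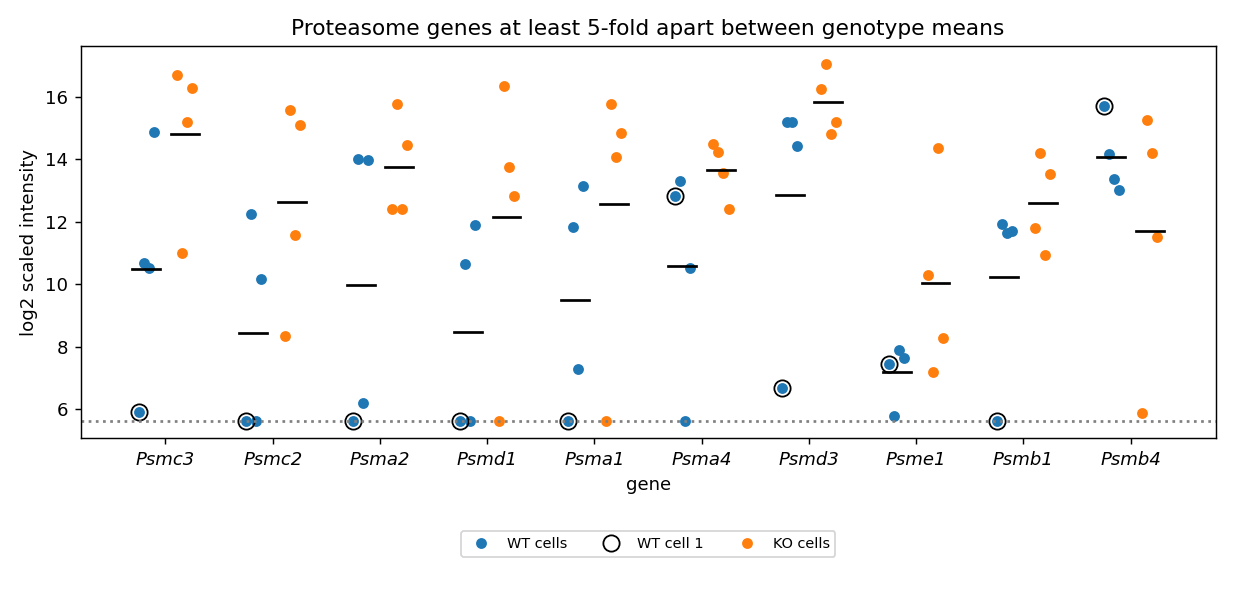
Log2 scaled intensity of the 10 proteasome genes at least 5-fold apart between genotype means, with 1 point per cell (blue WT, orange KO), black bars for means, a ring around WT cell 1 and a dotted line at the floor of 5.64. WT and KO points overlap in every gene, and *Psmb4* is the one gene with the lower mean in KO cells.

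In the lid, *Psmd3* (chromosome 11, 98557183 to 98557242), a structural subunit, was at 6.68, 15.20, 15.18 and 14.43 in the WT and at 16.24, 17.05, 14.81 and 15.18 in the KO cells. WT cell 1 set the difference of 2.95 (SD 3.02), which was 0.89 without it. *Psmd7*, the inactive partner of the deubiquitinase, was among the steadier genes, at 15.04, 11.57, 12.33 and 10.93 in the WT and at 13.99, 13.61, 12.09 and 11.30 in the KO cells, a difference of 0.28 (SD 1.56).

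*Psmd14* encodes the deubiquitinase that cuts ubiquitin chains from the substrate. It was at 5.64, 9.16, 10.83 and 8.24 in the WT and at 5.64, 5.64, 7.16 and 11.24 in the KO cells, a difference of -1.05 (SD 2.42). *Psmd8* was at 12.38, 9.92, 5.64 and 9.69 and at 12.62, 11.62, 13.64 and 8.41, and its difference of 2.17 (SD 2.54) was 3.16 without WT cell 1. The lid genes had a median difference of 0.41, and of 1.01 without WT cell 1.

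Among the activators, *Psme1*, a subunit of the PA28 ring that interferon induces (chromosome 14, 56200194 to 56200253), was at 7.47, 5.80, 7.91 and 7.65 in the WT and at 10.30, 7.19, 14.36 and 8.27 in the KO cells. KO cells 1, 3 and 4 lay above all WT cells, and KO cell 3 stood highest. The difference of 2.83 (SD 2.34) was 1.38 without KO cell 3. Its probe was printed 10 times on each array, and the SD between those spots was 0.042 to 0.236 on the log2 scale, against an SD of 2.64 over the 8 cells. Repeated spots share 1 amplified cDNA, so that they measure the hybridization only and not the amplification of each cell.

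*Psme3*, which forms the nuclear PA28 ring, varied least among the 23 genes detected everywhere, with an SD over 8 cells of 1.09. It was at 9.80, 9.66, 9.21 and 9.24 in the WT and at 7.60, 11.54, 9.40 and 8.84 in the KO cells. The SD was 0.298 among WT and 1.64 among KO cells. *Psme4*, the PA200 activator, was above the floor in 2 cells of each genotype. *Psmf1*, the PI31 regulator first described as an inhibitor, was at 10.27 and 9.67 in WT cells 3 and 4, and at the floor in WT cells 1 and 2 and in all KO cells, 1 of which was still called well above background. Its difference was -2.16 (SD 1.78), and -2.89 without WT cell 1.

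Assembly chaperones were detected in fewer cells. *Psmg1*, which pairs with *Psmg2* to build the alpha ring, was well above background on all 8 arrays, at 11.60, 10.92, 9.01 and 7.97 in the WT and at 10.76, 14.76, 12.89 and 5.64 in the KO cells. The difference was 1.14 (SD 3.03), and -0.11 without KO cell 2. *Psmg3* and *Psmg4*, the other alpha ring pair, were highest in the same cell, KO cell 3, at 12.05 and 12.67. *Psmg3* was at the floor in WT cells 1, 3 and 4 and at 10.67 in WT cell 2, while *Psmg4* was at the floor in WT cells 1 to 3 and at 8.93 in WT cell 4. *Psmd9*, a chaperone of the base, was above the floor in 2 cells of each genotype, with a difference of -0.54 (SD 2.39). *Psmd10*, which also chaperones the base, was above the floor only in KO cell 1, at 7.33. The median difference of the 7 genes was 1.003, and 0.58 without WT cell 1. None was 5-fold apart, beside 4.65% of all genes past the filter that were higher and 4.34% that were lower.

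Medians over the groups were thus 0.78 for the core, 0.28 for the cap, -0.12 for the activators and inhibitor and 1.003 for the assembly chaperones. Beside these, and the medians of the rings, base and lid, stood 0 for all genes past the filter. Genes with a mean of at least 8 had a median of 0.30. Medians over the genes of a group, taken per cell, had an SD between cells of 2.13, 1.96, 1.51 and 2.13. That SD is the spread of another measure than the median of the differences, so they are not set against each other. Core medians per cell were 5.64, 12.04, 10.61 and 11.70 in the WT and 11.80, 11.66, 12.73 and 12.21 in the KO cells. In each of the groups, the per-cell medians of the genotypes overlapped. Without WT cell 1 the medians of the differences were 0.51 for the core and -0.23 for the cap. All genes past the filter then had 0.01 and genes with a mean of at least 8 had 0.35. The SDs of the per-cell medians fell without that cell to 0.603 for the core and 0.618 for the cap.

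The 2 genes outside these roles were each bright in few cells. *Psme2b* was at 14.16 in WT cell 1, at 12.55 in KO cell 3 and at 7.41 and 6.18 in KO cells 2 and 4, and was at the floor in the other 4 cells. Its sequence is close to that of *Psme2*, and the probes cannot be said to read 1 copy alone. *Psmc3ip* was above the floor at 10.59 in WT cell 3 and 6.74 in KO cell 1.

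Values also varied from cell to cell within a genotype. In WT cell 1, 24 of the 47 genes were at the floor, against 8 to 16 in the other 7 cells, and 25 were well above background, against 33 to 42. Its array was also low over all genes. Of all genes past the filter, 49.4% were at the floor in WT cell 1, against 41.1% to 44.2% in the other cells. Of all genes, 25.5% were well above background there, against 28.8% to 39.9%. The median over the 47 genes was 5.64 in WT cell 1, 10.92, 10.52 and 10.93 in the other WT cells, and 8.95, 11.13, 12.04 and 11.92 in the KO cells. WT cell 1 was nevertheless the highest of all 8 cells for 6 genes, and KO cell 2 for 13, while WT cell 2 was so for none. *Psma2*, *Psmb1* and *Psmd13* were at the floor in WT cell 1 alone.

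For the 23 genes well above background on all arrays, the median deviation from the mean over the 8 cells was -1.01 in WT cell 1, 0.31, 0.48 and 0.08 in the other WT cells, and 0.97, 1.13, 0.87 and 0.28 in the KO cells. Over all 6236 genes of that kind the same measure lay between -0.33 and 0.21. All 23 genes spanned at least 5-fold between their lowest and highest cell. Their SD over cells ran from 1.09 for *Psme3* to 3.73 for *Psmc3*, with a median of 2.64, against 0.767 for all genes detected on all arrays. With the brightness limit of 8, the medians were 2.70 for proteasome genes and 2.02 for all genes.

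**Figure D3:**
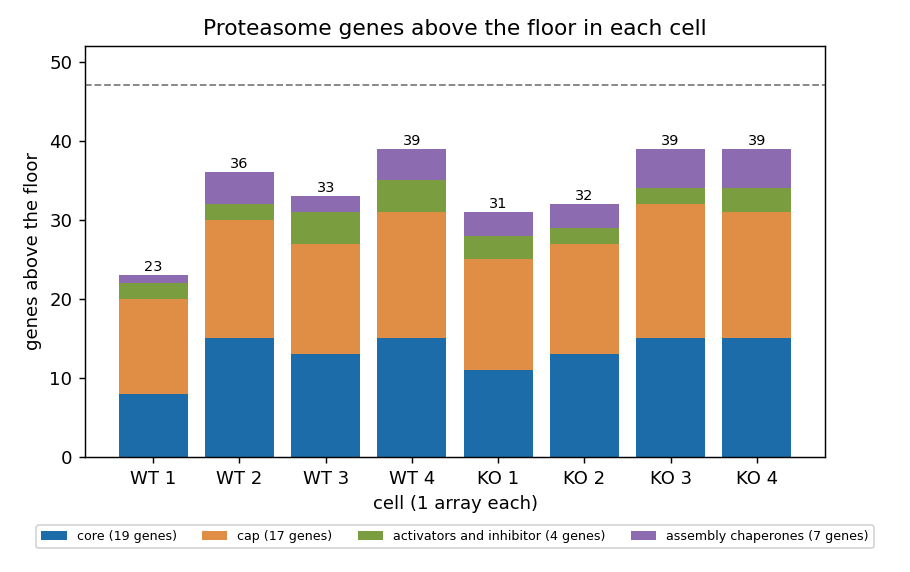
Number of proteasome genes above the floor of 5.64 in each cell (bars, stacked by role), with the dashed line at all 47 genes. WT cell 1 has 23 genes above the floor and the other 7 cells 31 to 39, with the 2 genotypes overlapping.

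**Figure D4:**
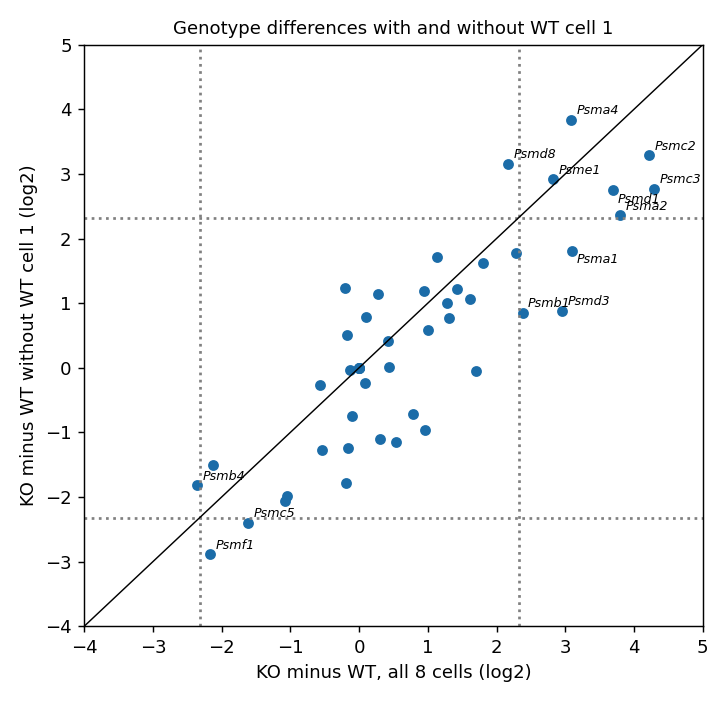
KO minus WT difference (log2) of each of the 47 proteasome genes with all 8 cells (horizontal) and without WT cell 1 (vertical), with dotted lines at 5-fold, a diagonal of equal values, and names for genes past 5-fold on either axis. *Psmd3* and *Psmb1* drop to 0.89 and 0.85 without that cell, while *Psmc2*, *Psmc3*, *Psma2*, *Psma4*, *Psmd1* and *Psme1* stay past 5-fold higher.

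Likeness between genes whose products meet in 1 particle was described over the 8 cells, where Pearson's r had a median of -0.09 for the 36 pairs within the core, -0.10 for the 55 pairs within the cap and -0.04 for the 99 pairs of a core and a cap gene, all well above background on all arrays. The median over pairs of all genes of that kind was 0.13, taken over 5837 genes after leaving out 399 that were at the floor in every cell. Single pairs ran from -0.92 for *Psmd4* and *Psmd7* to 0.95 for *Psma6* and *Psmb7*. *Psma7* and *Psmd7* (0.92) were also close, whereas *Psma6* and *Psma7*, of the same ring, had an r of -0.83. These values describe 8 cells that share slide, scaling and amplification. Without WT cell 1 the medians within core, within cap and between were -0.19, -0.09 and -0.09.

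Where a gene had a second probe, its values are set beside those of the first. Over 13 pairs of probes in 12 genes, r across the cells was 0.999 for *Psmb5* and *Psmc3*, 0.9998 for *Psmc2*, 0.996 for *Psmc1* and 0.891 for *Psma4*. The second probes gave differences of 1.36 for *Psmb5*, 4.13 for *Psmc3*, 4.04 for *Psmc2*, -2.26 for *Psmc1* and 3.97 for *Psma4*, each of the sign of the first, as in 8 of the 13 pairs. The second *Psma4* probe was at the floor in WT cells 3 and 4, where the first was at 5.64 and 10.53. The *Psmc2* probes share most of their bases. Low values of WT cell 1 therefore stood on both probes of *Psmc2* and *Psmc3*. Second probes of 2 further named genes, *Psmg1* and *Psmd9*, had an r of 0.981 and 0.989 and the same sign, and that of *Psme4* was at the floor in all cells. Of the 47 genes with both probes above the floor in some cell, *Psmd12* alone had probes of opposite sign, with differences of -0.57 and 1.22 and an r of 0.419, and its second probe was well above background on 3 arrays.

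The second probe of *Psmc1* is annotated on mm9 chr19:37859958-37860017, whereas the gene lies on chromosome 12. It is printed because its letters could come from another copy of the gene, so that this probe is uncertain as a measure of *Psmc1*.
*Psmc1*, second probe: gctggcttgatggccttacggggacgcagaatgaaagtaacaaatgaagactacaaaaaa
The 2 *Psmc1* probes nevertheless moved together, with the lowest cell, KO cell 3, at 6.91 on the first and at the floor on the second.

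**Figure D5:**
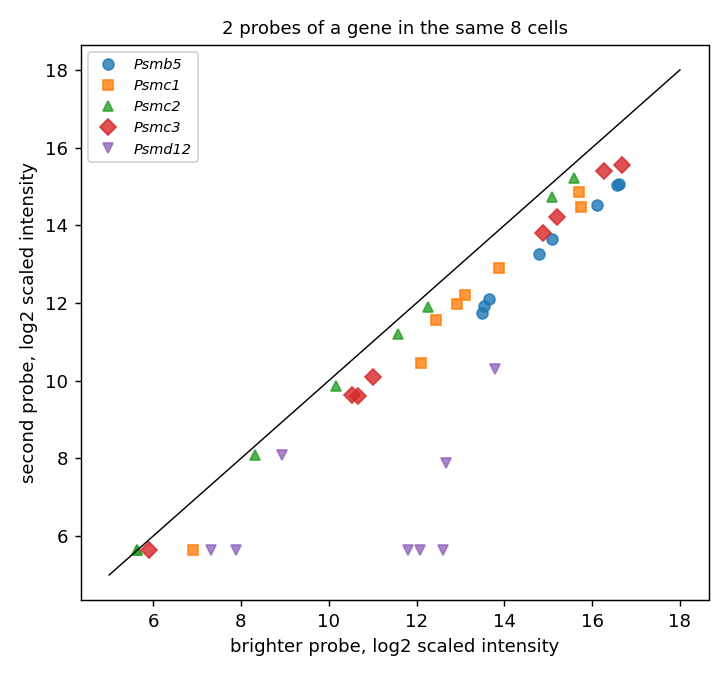
Log2 scaled intensity of the second probe (vertical) against the brighter probe (horizontal) for 5 proteasome genes, with 8 cells each and a diagonal of equal values. Points of *Psmb5*, *Psmc1*, *Psmc2* and *Psmc3* follow a line below the diagonal, and those of *Psmd12* (r 0.419) scatter. *Psmc2* in WT cells 1 and 3 is at the floor on both probes and lies on the diagonal.

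Partners of the proteasome that are not named Psm were taken from a list of 28 genes, of which 27 had a usable probe and 9 were well above background on all arrays. At least 5-fold higher in the KO mean was 1 gene and lower 0, beside 4.65% and 4.34% of all genes past the filter, with a median difference of 0.10. The 1 gene was *Adrm1*, a ubiquitin receptor of the cap, at 7.82, 11.35, 12.27 and 13.21 in the WT and at 12.61, 13.40, 14.42 and 13.99 in the KO cells. The difference was 2.44 (SD 1.75), and 1.33 without WT cell 1. *Uba1*, the enzyme that activates ubiquitin, was the 1 gene of the list whose cells did not overlap, at 14.94, 13.33, 15.12 and 14.03 in the WT and at 15.84, 17.06, 15.65 and 15.81 in the KO cells, where 1.93% of all genes had every KO cell above every WT cell. Its difference was 1.73 (SD 0.75). Of genes with a mean of at least 8, 4.02% had every KO cell above every WT cell. Of genes well above background on all arrays, 3.06% did.

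*Rps27a* and *Ubb*, which encode ubiquitin, were well above background in every cell, between 17.29 and 19.13 and between 15.19 and 17.43. *Vcp*, the segregase that hands substrates to the proteasome, lay between 11.79 and 15.33. *Pomp*, the maturation factor of the core, was at the floor in WT cell 1, at 7.74 in KO cell 1 and between 13.10 and 14.24 in the other 6. *Nfe2l1*, the factor that raises proteasome genes, was well above background on no array, and *Nfe2l2*, a related factor, was above the floor in 5 cells.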

How the data were processed

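The 8 one-colour Agilent arrays (design 028005), each of 1 cell, were analysed together. The intensity values were deposited by the authors as scanner output of Feature Extraction 12.0.2.2, background-subtracted and detrended within each array and not normalized between arrays. The other flags deposited with them give outlier spots, saturation and signal over background. Control and outlier spots were left out and spots of a probe averaged. Of 55681 probes, 386 without a usable spot on every array were dropped. Because most probes were dim, the 50th percentile used for scaling was taken over the 7570 probes that were well above background everywhere. A floor of 50 was then applied before taking log2. No probe was saturated. A gene is given by its probe with the highest mean intensity, and all 49 names matched RefSeq (GRCm38.p6, names and promoters only) by accession. Probe positions are those of the array on mm9.

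The precision is limited by the number of arrays, and cells are separate samples only by their labels. The members, gene lists and settings were chosen with earlier results of these data known. Named by rule were the up to 3 largest differences in each direction per role group, the catalytic and inducible subunits, *Psme1*, *Psmd14* (on a list of the study for other cells), the 5 steadiest and 5 most variable of the genes detected everywhere, those detected nowhere, and list genes 5-fold apart. *Psma5*, *Psmb1*, *Psmb2*, *Psmc4*, *Psmd8*, *Psmd10*, *Psmd12*, *Psmd13*, *Psmg2*, *Uba1* and the other list genes were named after their values were seen. Some genes of the partner list are not reported here. The alternatives were the 75th percentile, all probes for the percentile, the floor set before scaling, quantile normalization, normexp with an offset of 50, a floor of 10 or 200, averaging the probes of each gene, other filters on dim probes, the other detection call of the software, and each cell left out in turn. On simulated data with 100 genes raised and 100 lowered by 4 (log2) among 11874 and an SD of 0.5, all were recovered, which tested the steps and not recovery at the real spread. Python 3.11.15, numpy 2.4.6, pandas 2.3.3, matplotlib 3.10.9 and R 4.3.3 with limma 3.58.1 were used.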

Additional observations from a re-analysis of the deposited data

Results flagged for a closer look

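In groups of 4 cells, 1 cell stood away from the other 3 when its gap to the nearest of them, divided by the range of the group, passed the 95% limit of Dixon's ratio. This held in 13 of 73 groups examined, beside a nominal 1 in 20, or 3.65. A floor shared by the other cells raises the ratio. The genes flagged were all named by rule, and part of that rule took large differences or spreads in these same cells. The nominal rate therefore does not hold for them, and no excess can be read from the count. Genes not named by rule are not listed here, such as *Psmb1*, which was at the floor in WT cell 1 alone. WT cell 1 stood below the other WT cells for *Psma6* (ratio 0.903), *Psmb6* (0.883), *Psmb7* (0.879) and *Psmd3* (0.909), and above them for *Psma7* (0.875). It also stood below them in the median over the 47 proteasome genes (0.923) and over the cap genes (0.864). WT cell 2 stood above the others for *Psmb10* (0.976), of which 2 were at the floor, and for *Psmg3* (1), where all 3 were. Of *Psmg4* the ratio was also 1, with WT cell 4 above 3 cells at the floor. Among KO cells, cell 1 stood below the others for *Psma1* (0.833), cell 2 for *Psmb7* (0.924) and cell 3 for *Psmb5* (0.837).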

How the results depend on the processing

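No paired analysis was possible because the genotypes were compared without a test and the shared cell numbers only name cells. The number of proteasome genes at least 5-fold higher in KO cells was 9 in the main setting and 4 to 11 under the alternatives. The 4 were among genes well above background on all 8 arrays, beside 2.41% of all such genes. The number at least 5-fold lower was 1 in the main setting, 2 with the 75th percentile, all probes for the percentile, the floor before scaling, quantile normalization or a floor of 10, and 0 with normexp or a floor of 200. Leaving out 1 cell gave 7 to 13 higher and 0 to 3 lower (0 without KO cell 1, 3 without KO cell 4, 2 without WT cell 1, 3 or 4 or KO cell 2). Beside these, 3.76% to 6.48% of all genes past the filter were higher and 4.41% to 6.90% lower. Every KO cell then lay above every WT cell for 0 to 4 genes and the reverse held for 0 to 1, beside 2.40% to 4.51% and 0.72% to 1.72%. No proteasome gene was of either kind in the main setting or under the other alternatives. The median difference of the 47 genes ranged from 0.24 to 0.79, and from 0.42 to 0.98 when 1 cell was left out. The core median ranged from 0.30 to 1.12 then, the cap from -0.23 to 0.89, the activators from -0.41 to 0.18 and the chaperones from 0.20 to 1.22. Under the other alternatives these ranges were 0.31 to 0.79, -0.11 to 0.32, -0.41 to 1.35 and 0.49 to 1.23, where the cap was below 0 with the 75th percentile (-0.11) and quantile normalization (-0.07), quantile normalization gave the activators 0.06, and their 1.35 came from the 2 activator genes that were well above background on all arrays. Under another detection call of the software, 38 genes in place of 25 were detected in WT cell 1, and 40 to 44 in the other cells.

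Of 544 differences of 34 named genes under the 16 settings, 538 moved by less than their SD between cells and 6 by more. The 6 were of *Psma8*, *Psmb8*, *Psmb9* and *Psmb11*, which were under the floor in every cell and had an SD of 0. The other SDs were wide, so that this measure does not show that the differences held. Without WT cell 1, *Psmd3* went from 2.95 to 0.89, and *Psmb6* (-0.04) and *Psmb7* (-0.71) turned their sign. None past 5-fold turned its sign. Of the 10 genes past 5-fold, 3 (*Psma2*, *Psmc2* and *Psmc3*) stayed past it in each of those 16 settings. Filters on dim probes were not among the 16. *Psma2* and *Psmc2* were well above background on 7 arrays, so that a filter of all 8 arrays leaves them out. The share of all genes at least 5-fold higher ranged from 1.84% to 8.35% and lower from 1.82% to 6.67% under the alternatives. The share with every KO cell above every WT cell ranged from 0.57% to 4.02% there, and the reverse from 0.14% to 1.08%. The causes of these changes were not tested. The dim end of the arrays limits the assembly chaperones, *Psmf1*, *Psme4*, *Psmc6* and *Psmb10* most, since they were at or near the floor in many cells.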
